A study of Homo sapiens with 29 samples.

Results

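NRF2, the product of NFE2L2, is the transcription factor that cells use against oxidants and electrophiles. Its partner KEAP1 sends it for degradation until reactive compounds modify KEAP1, after which NRF2 pairs with a small MAF protein and binds antioxidant response elements, while BACH1 competes for the same elements. The genes it controls supply glutathione, thioredoxin and peroxiredoxin capacity and detoxify quinones and haem, and oncogenic RAS is known both to raise oxidant production and to act on this pathway.

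Expression of NFE2L2 and 9 genes widely used as its targets was followed in senescent fibroblasts with and without SMARCA4. The members were taken by name, 10 of the 28266 genes in the count data, under a rule that uses no measured value. The choice was made with earlier results of these data known. They were SLC7A11, GCLC and GCLM (glutathione supply), TXNRD1, SRXN1, PRDX1 and PRDX6 (thioredoxin and peroxiredoxin system), and NQO1 and HMOX1 (quinone and haem detoxification). All 10 passed the filter on low counts, which left 13136 genes for testing.

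The cells were IMR90 ER:RAS, a line of human lung fibroblasts infected with a retrovirus that expresses a fusion of the estrogen receptor with oncogenic RAS, and the labels name this line for every library. DMSO_siNT held growing cells treated with the solvent DMSO and transfected with non-targeting siRNA. 4OHT_siNT held cells that received 4-hydroxytamoxifen (4OHT), which switches the fusion on and drives senescence, with the same non-targeting siRNAs. 4OHT_siSMARCA4 held 4OHT-treated cells transfected with siRNA against SMARCA4, an ATPase of the SWI/SNF chromatin remodelling complex. RNA was taken at day 7, and each group had 6 libraries, 3 with the siRNA numbered 2 and 3 with the siRNA numbered 4. Non-targeting and SMARCA4 siRNAs of the same number are different siRNAs that share only the number. Nothing in the labels says that the libraries of a group came from separate cultures, so the p-values may measure technical spread only.

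Total counts per library ranged from 9657309 to 18039313, and the lowest count of any member in a library was 167, for HMOX1 in a DMSO_siNT library. SMARCA4 measured 70.4 to 141 CPM (the count of a gene scaled to the library total by TMM) in the knockdown libraries and 275 to 329.9 CPM in 4OHT_siNT. The library DMSO_siNT 4-2V (siRNA 4, set 2V) stood apart. It had 29.5 CPM of ESR1 and 436 CPM of HRAS, the genes whose sequence the fusion carries, where the other 5 growing libraries had 1034 to 1316 CPM and 2165 to 2852 CPM. These levels go against its label as an ER:RAS library, whether it held that line was not tested, and it is named here as labelled. The groups were also unevenly spread over set names, whose meaning is not stated. The 4OHT_siNT libraries all belonged to VM sets and the growing ones to V and VM sets in equal number. Among the knockdown libraries 3 were V and 2 were VM by their titles. The remaining one matched no sample title, its column name gives set 1VM, and it is called the unlabelled library below. Fibroblast markers summed to between 15886 and 38358 CPM in every library, against 45.3 to 75.0 CPM for 6 leukocyte and 4.44 to 15.6 CPM for 5 endothelial markers. Of the 6 leukocyte markers only CD68 passed the filter on low counts. Its means were 52.8, 58.6 and 59.7 CPM in DMSO_siNT, 4OHT_siNT and 4OHT_siSMARCA4, while NKG7 was at 0 in all 18 libraries. The sum of 6 epithelial markers was 107 to 151 CPM in DMSO_siNT, 65.1 to 81.9 CPM in 4OHT_siNT and 35.9 to 58.2 CPM in 4OHT_siSMARCA4, without overlap. With senescence 3 of the 12 fibroblast markers rose and 5 fell, where 23.9% of all genes tested rose and 28.9% fell. Of 12 fibroblast markers 6 fell and 0 rose with SMARCA4 knockdown by edgeR, where 5.65% of all genes fell and 4.99% rose. At an unadjusted p under 0.05 there were 7, where 3244 of all 13136 genes tested passed in either direction. The part of these marker changes in the members' values was not tested. In bulk RNA, fewer cells expressing a gene and less of its RNA per cell cannot be told apart.

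To see which members carry the binding sequence at their start site, the 250 bases before each annotated start were searched on both strands for the letters TGACNNNGC, the core of the antioxidant response element. RefSeq promoter windows were at hand for 6 of the 10 members, and HMOX1, SLC7A11, PRDX1 and PRDX6 were not among them. The letters were present at GCLM and at 2 starts of TXNRD1, and in 10.9% of all 35116 windows. The windows of NFE2L2, NQO1, GCLC and SRXN1 held no match. Of the genes that rose with SMARCA4 knockdown, GCLM and TXNRD1 thus had a match in their windows, NQO1 had none and SLC7A11 had no window. Bases further than 250 before a start were not searched, so a missing match does not show that a gene lacks the element. The 30 bases around each match follow, 5′ to 3′ on the strand of the gene, with the match in capitals (GRCh38.p14).
GCLM, chr1:93909446-93909475, minus strand, 34 bases before the start: ctacgatttctGCTTAGTCAttgtcttcca
TXNRD1, upstream start, chr12:104215669-104215698, plus strand, 99 bases before the start: tacacgggctaTGACTTCGCtgttgtcacc
TXNRD1, downstream start, chr12:104286919-104286948, plus strand, 102 bases before the start: agtggatttctGCTTTGTCAttctgactct
The GCLM site and the downstream TXNRD1 site hold the letters in reverse complement, and the upstream TXNRD1 site holds them forward. A match is a description of the sequence and no measurement of binding.

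Levels between genes were compared as CPM per kilobase of the canonical transcript. PRDX1, a peroxiredoxin of the cytosol, had the highest level in every group, with means of 775 CPM per kb in DMSO_siNT, 614 CPM per kb in 4OHT_siNT and 770.0 CPM per kb in 4OHT_siSMARCA4. SLC7A11, GCLC and GCLM held the lowest 3 places in every group, between 6.25 and 15.7 CPM per kb. In 4OHT_siNT the order was PRDX1, PRDX6, TXNRD1, SRXN1, NQO1, NFE2L2, HMOX1, GCLC, GCLM and SLC7A11. There the ranges overlapped for PRDX6 (159.9 to 187 CPM per kb) and TXNRD1 (119.5 to 172), for SRXN1 (66.7 to 73.2) and NQO1 (53.8 to 77.6), and for GCLM (7.52 to 9.41) and SLC7A11 (5.05 to 8.21), and the other neighbours did not overlap.

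**Figure D1:**
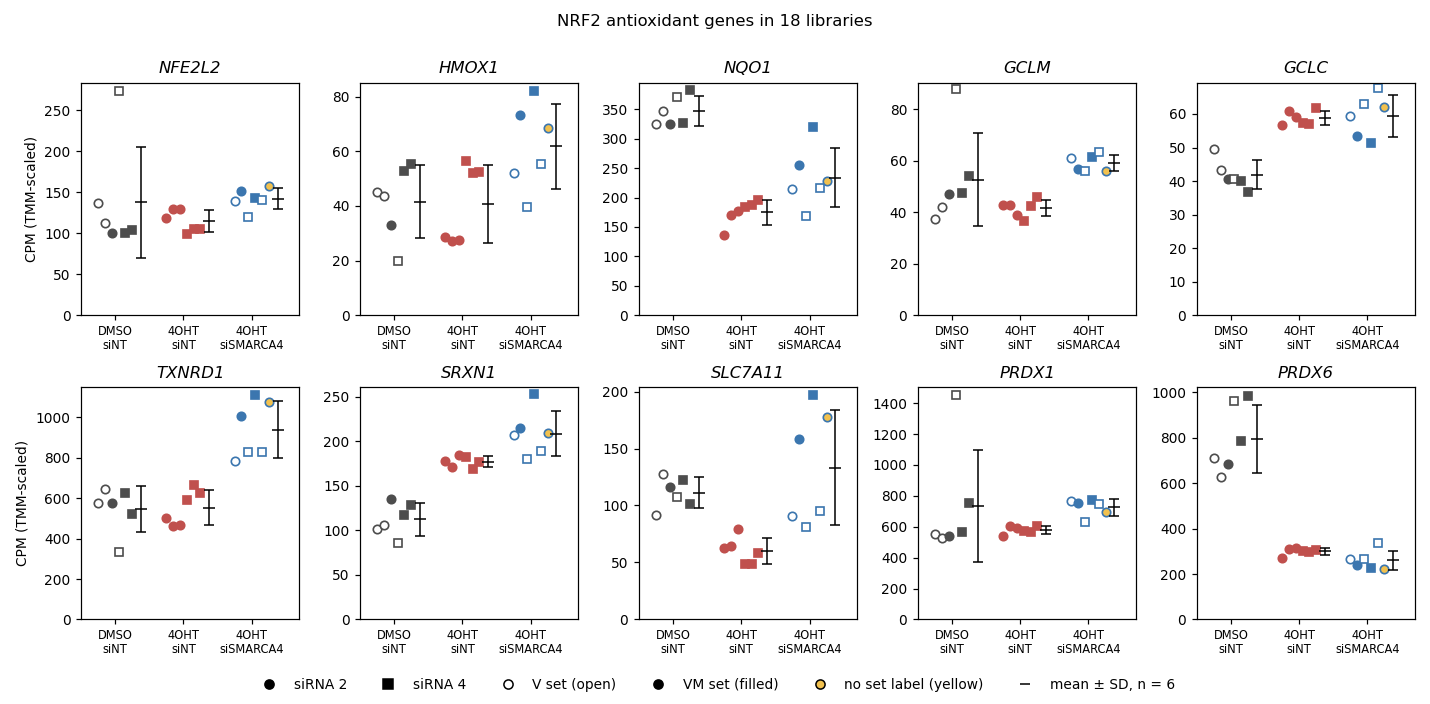
CPM scaled by TMM of each of the 10 genes (1 panel each, axis from 0) in the 3 groups, with 1 symbol per library and the mean ± SD of 6 libraries to the right of each group. Circles are siRNA 2 and squares siRNA 4, open symbols V sets, filled symbols VM sets and yellow the unlabelled library. The single high square of NFE2L2 (274 CPM) and PRDX1 (1451 CPM) in DMSO_siNT is the library DMSO_siNT 4-2V, and SLC7A11 in the knockdown group splits into 3 V libraries near 89.0 CPM and higher libraries above them.

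To examine the pathway in senescence, 4OHT_siNT was compared with DMSO_siNT. The members did not move together. The antioxidant enzymes PRDX6 and NQO1 and the cystine transporter SLC7A11 were lower in senescent cells, GCLC and SRXN1 were higher, and NFE2L2, HMOX1, GCLM, TXNRD1 and PRDX1 did not pass the test. Thus 5 of 10 members were called by the quasi-likelihood test of edgeR at an adjusted p under 0.05, 2 higher and 3 lower. Among all genes tested 52.8% were called, 23.9% higher and 28.9% lower, so the share of members called was close to that of all genes. The median log2 fold change was -0.30 over the members and -0.05 over all genes. The 10 genes together took 0.292% ± 0.023 (SD, n = 6) of all counts in DMSO_siNT and 0.206% ± 0.0073 in 4OHT_siNT.

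PRDX6, a peroxiredoxin that also reduces phospholipid peroxides, showed the largest difference of the 10. Its lowest, median and highest levels were 627, 748 and 985 CPM in DMSO_siNT and 270.2, 304 and 316 CPM in 4OHT_siNT. Every senescent library lay far under every growing one. The level was 2.64-fold lower (log2 fold change -1.40 ± 0.13 (SE), adjusted p = 2.57e-08).

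NQO1, a quinone reductase and a standard readout of NRF2, measured 325, 338 and 383 CPM in DMSO_siNT and 136, 180.4 and 196 CPM in 4OHT_siNT. The groups did not overlap, and the log2 fold change was -0.99 ± 0.13 (adjusted p = 2.76e-06). SLC7A11, the cystine importer that feeds glutathione synthesis, measured 91.9, 112 and 128 CPM in growing and 48.7, 60.6 and 79.2 CPM in senescent cells. It was lower in all 6 senescent libraries than in any growing one (log2 fold change -0.88 ± 0.20, adjusted p = 0.00109).

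GCLC, the catalytic subunit of the enzyme that makes the first bond of glutathione, went the other way. It measured 36.8, 40.7 and 49.7 CPM in DMSO_siNT and 56.8, 58.2 and 61.8 CPM in 4OHT_siNT, with no overlap and a log2 fold change of 0.49 ± 0.09 (adjusted p = 1.19e-04). Its modifier subunit GCLM did not follow: the levels were 37.3, 47.3 and 87.6 CPM in growing and 36.7, 42.6 and 45.9 CPM in senescent cells (log2 fold change -0.34 ± 0.15, adjusted p = 0.0687). The highest GCLM value came from DMSO_siNT 4-2V, and the other 5 growing libraries spanned 37.3 to 54.1 CPM.

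SRXN1, sulfiredoxin, which restores overoxidised peroxiredoxins, measured 85.7, 112 and 135 CPM in DMSO_siNT and 169, 178 and 185 CPM in 4OHT_siNT. All senescent libraries exceeded all growing ones, by a log2 fold change of 0.65 ± 0.11 (adjusted p = 4.93e-05). TXNRD1, which keeps cytosolic thioredoxin reduced, measured 331, 577 and 643 CPM in growing and 461, 547 and 663 CPM in senescent cells. These ranges overlapped almost fully, and the log2 fold change was 0.02 ± 0.15 (adjusted p = 0.935).

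NFE2L2 itself measured 99.8, 108 and 274 CPM in DMSO_siNT and 98.6, 112 and 130.1 CPM in 4OHT_siNT (log2 fold change -0.26 ± 0.20, adjusted p = 0.282). PRDX1 measured 527, 560.5 and 1451 CPM against 539, 583 and 605 CPM (log2 fold change -0.34 ± 0.20, adjusted p = 0.1597). Both maxima of the growing group were DMSO_siNT 4-2V. Without that library the log2 fold changes were 0.06 ± 0.10 for NFE2L2 (adjusted p = 0.620), -0.02 ± 0.09 for PRDX1 (adjusted p = 0.881) and -0.13 ± 0.09 for GCLM (adjusted p = 0.231).

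HMOX1, the inducible haem oxygenase, measured 19.96, 44.4 and 55.3 CPM in DMSO_siNT and 27.2, 40.4 and 56.3 CPM in 4OHT_siNT, with wide overlap (log2 fold change -0.03 ± 0.25, adjusted p = 0.916). Its senescent values fell into separate clusters by siRNA number, described with the siRNA comparison.

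The 5 members called were also the 5 whose groups did not overlap, a property that 33.8% of all genes tested had. Without DMSO_siNT 4-2V the same 5 genes were called in the same directions, where 58.3% of all genes were called, and PRDX6 then had a log2 fold change of -1.33 ± 0.12. Within VM sets (3 growing and 6 senescent libraries), where 53.5% of all genes were called, these 5 were called, with log2 fold changes of -1.45 for PRDX6, -0.98 for NQO1, -0.91 for SLC7A11, 0.59 for GCLC and 0.48 for SRXN1, and GCLM was called as a sixth (-0.25 ± 0.09, adjusted p = 0.0320). A comparison within V sets was not made, because the 4OHT_siNT libraries analysed had none.

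**Figure D2:**
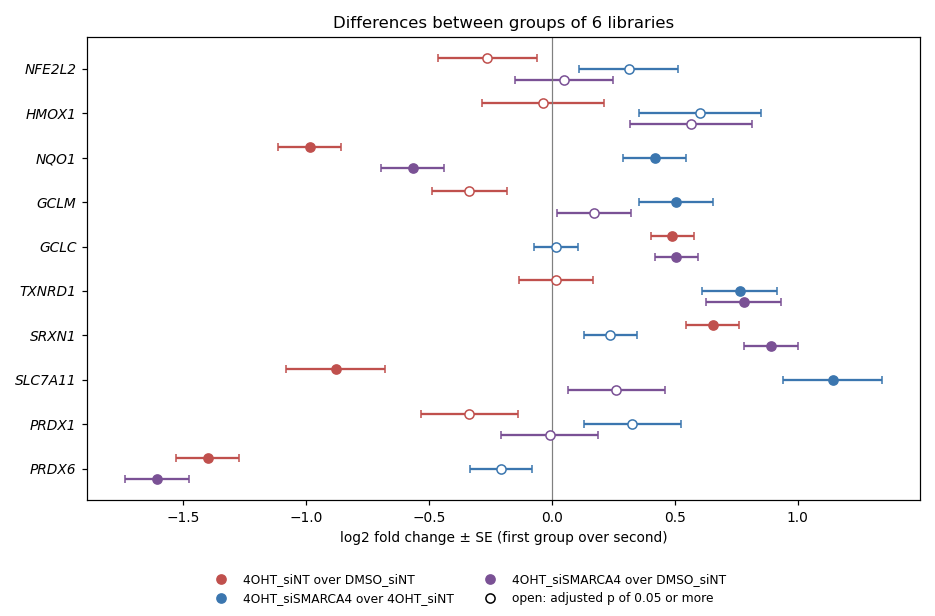
Log2 fold changes ± SE of the 10 genes from the edgeR fit of 18 libraries, with 1 colour per comparison and filled points for an adjusted p under 0.05. In the senescence comparison (red) PRDX6, NQO1 and SLC7A11 lie left of 0 and GCLC and SRXN1 right of it, and in the knockdown comparison (blue) SLC7A11, TXNRD1, GCLM and NQO1 are filled and lie right of 0.

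To learn what loss of SMARCA4 did to these genes in senescent cells, 4OHT_siSMARCA4 was compared with 4OHT_siNT. SLC7A11, TXNRD1, GCLM and NQO1 were called higher, and no member was called lower. The log2 fold changes of 9 of 10 members were above 0, with PRDX6 as the exception. Among all genes tested 10.6% were called, 4.99% higher and 5.65% lower, against 4 of 10 members. The median log2 fold change was 0.37 over the members and 0.01 over all genes. The share of counts taken by the 10 genes was 0.284% ± 0.031 (SD, n = 6) in the knockdown group. Abundant genes weigh most in this share. With knockdown mean levels went from 552 to 938 CPM for TXNRD1 and from 300 to 260 CPM for PRDX6. This comparison and the one above share the 4OHT_siNT libraries, so a low or high value there would move both in opposite directions.

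SLC7A11 rose most. Its lowest, median and highest levels were 48.7, 60.6 and 79.2 CPM in 4OHT_siNT and 80.9, 127 and 197 CPM in 4OHT_siSMARCA4. All 6 knockdown libraries lay above all 6 controls, though the lowest did so by a narrow margin. The level was 2.21-fold higher (log2 fold change 1.14 ± 0.20, adjusted p = 0.00118).

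TXNRD1 measured 461, 547 and 663 CPM in 4OHT_siNT and 784, 916 and 1110.2 CPM in the knockdown group. The gap between the groups was wide, and the level was 1.70-fold higher (log2 fold change 0.76 ± 0.15, adjusted p = 0.00301). GCLM measured 36.7, 42.6 and 45.9 CPM against 55.9, 59.0 and 63.3 CPM, a rise in all 6 knockdown libraries (log2 fold change 0.51 ± 0.15, adjusted p = 0.0368). GCLM was also the member that varied least among knockdown libraries, with an SD of 5.502% of its mean.

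NQO1 measured 136, 180.4 and 196 CPM in 4OHT_siNT and 169, 223 and 320.0 CPM in 4OHT_siSMARCA4. The groups overlapped through 1 knockdown library, 4-2V, and the other 5 exceeded every control (log2 fold change 0.42 ± 0.13, adjusted p = 0.0410). The rise of NQO1 left it under the growing level, which began at 325 CPM.

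PRDX1 did not pass the test although its groups did not overlap. It measured 539, 583 and 605 CPM in 4OHT_siNT and 632, 749 and 775 CPM with knockdown (log2 fold change 0.33 ± 0.20, adjusted p = 0.327). In all, 4 members had groups without overlap (GCLM, TXNRD1, SLC7A11 and PRDX1), where 11.4% of all genes tested did.

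HMOX1 measured 27.2, 40.4 and 56.3 CPM in 4OHT_siNT and 39.8, 61.9 and 82.0 CPM with knockdown (log2 fold change 0.60 ± 0.25, adjusted p = 0.133). NFE2L2 measured 98.6, 112 and 130.1 CPM against 120.3, 142 and 158 CPM (log2 fold change 0.31 ± 0.20, adjusted p = 0.363). SRXN1 measured 169, 178 and 185 CPM against 180.4, 208 and 253 CPM (log2 fold change 0.24 ± 0.11, adjusted p = 0.179). For NFE2L2 and SRXN1 5 of 6 knockdown libraries lay above every control, and for HMOX1 3 of 6 did.

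GCLC and PRDX6 stood out from the rest. GCLC measured 56.8, 58.2 and 61.8 CPM in 4OHT_siNT and 51.3, 60.6 and 67.8 CPM with knockdown, on both sides of the controls (log2 fold change 0.02 ± 0.09, adjusted p = 0.940). PRDX6 measured 270.2, 304 and 316 CPM against 223, 254 and 336 CPM (log2 fold change -0.21 ± 0.13, adjusted p = 0.331), and 5 of 6 knockdown libraries lay under every control.

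Without DMSO_siNT 4-2V, which is in neither group but shares the estimate of spread, 7 members were called, all higher, where 24.6% of all genes were called. The 3 added were PRDX1 (log2 fold change 0.32 ± 0.09, adjusted p = 0.0123), NFE2L2 (0.30 ± 0.09, adjusted p = 0.0207) and HMOX1 (0.59 ± 0.21, adjusted p = 0.0421). Leaving out each of the 18 libraries in turn, SLC7A11 and TXNRD1 kept their calls each time, GCLM in 8 and NQO1 in 4. The count fell to 2 without any one of 4OHT_siNT 2-1VM, 2-2VM, 2-3VM, 4-1VM or 4-2VM, or 4OHT_siSMARCA4 2-3V, 2-3VM, 4-2VM or the unlabelled library.

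The calls also differed by set. Within VM sets (6 controls and 2 knockdown libraries) 9 members were called, 8 higher and PRDX6 lower, where 21.0% of all genes were called. The log2 fold changes there were 1.54 ± 0.15 for SLC7A11 (adjusted p = 1.02e-05), 0.92 ± 0.14 for TXNRD1, 0.92 ± 0.27 for HMOX1, 0.70 ± 0.13 for NQO1 and -0.39 ± 0.13 for PRDX6 (adjusted p = 0.0433). GCLC alone was not called (-0.18 ± 0.09, adjusted p = 0.161). In an edgeR fit with sets as a replicate block and no unlabelled library, SLC7A11 alone was called (1.28 ± 0.24, adjusted p = 0.0205). There 1.77% of all genes were called.

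**Figure D3:**
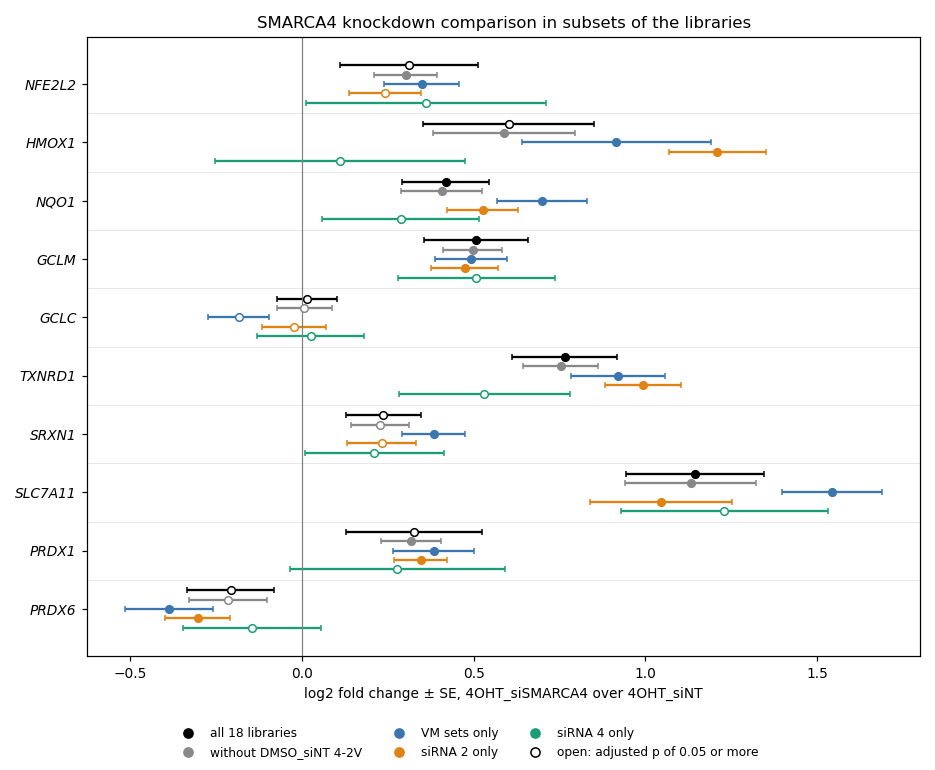
Log2 fold changes ± SE of the 10 genes between 4OHT_siSMARCA4 and 4OHT_siNT, from fits of all 18 libraries and of 4 subsets (colours), with filled points for an adjusted p under 0.05. All genes except GCLC and PRDX6 lie right of 0 in every fit shown. HMOX1 moves from 1.21 with siRNA 2 to 0.11 with siRNA 4, and PRDX6 is filled with VM sets and with siRNA 2.

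Inside the knockdown group the V and VM libraries differed for most members. The VM libraries (n = 2) averaged 178 CPM of SLC7A11 and the V libraries (n = 3) 89.0 CPM, a ratio of 2.00. HMOX1 averaged 77.7 against 49.03 CPM, NQO1 288 against 199.9 CPM and TXNRD1 1057 against 813 CPM. GCLC and PRDX6 were lower in VM libraries, at 52.3 against 63.4 CPM and 232 against 291 CPM. The V and VM libraries overlapped for GCLM and PRDX1 and not for the other members. How many of all genes separated in this way was not counted, so nothing particular to these members follows. With the unlabelled library counted as VM by its column name (n = 3), the VM mean of SLC7A11 was 178 CPM, and GCLC overlapped as well. With 3 against 2 libraries an exact permutation test could not reach the threshold, and none was run.

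SMARCA4 itself differed between these libraries. The knockdown library 4-2V had the highest remaining SMARCA4 (141 CPM) and the lowest value of 6 of the 10 members. The library 4-2VM had the lowest SMARCA4 (70.4 CPM) and the highest value of 6. The other VM library (2-3VM) and the unlabelled library had 87.0 and 78.8 CPM of SMARCA4, and the V libraries 2-3V and 4-3V had 125 and 92.7 CPM. Their ranks did not follow SMARCA4 in order. The library 2-3V was lowest for 1 member, and 4-3V was highest for 3. The unlabelled library was highest for 1 and lowest for 2, and 2-3VM was neither for any. How these libraries ranked over all genes was not counted. Set and remaining SMARCA4 cannot be told apart in 6 libraries. In DMSO_siNT, without SMARCA4 siRNA, V and VM libraries (n = 3 each) separated for NFE2L2, GCLC and SRXN1. Their VM to V ratios were 0.58, 0.88 and 1.30. The other members overlapped there, among them SLC7A11 (ratio 1.04), TXNRD1 (1.11), NQO1 (0.99), HMOX1 (1.30) and PRDX6 (1.07). The V libraries of that group include DMSO_siNT 4-2V, and how many of all genes separated there was not counted. An effect of set on the knockdown values was not tested.

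**Figure D4:**
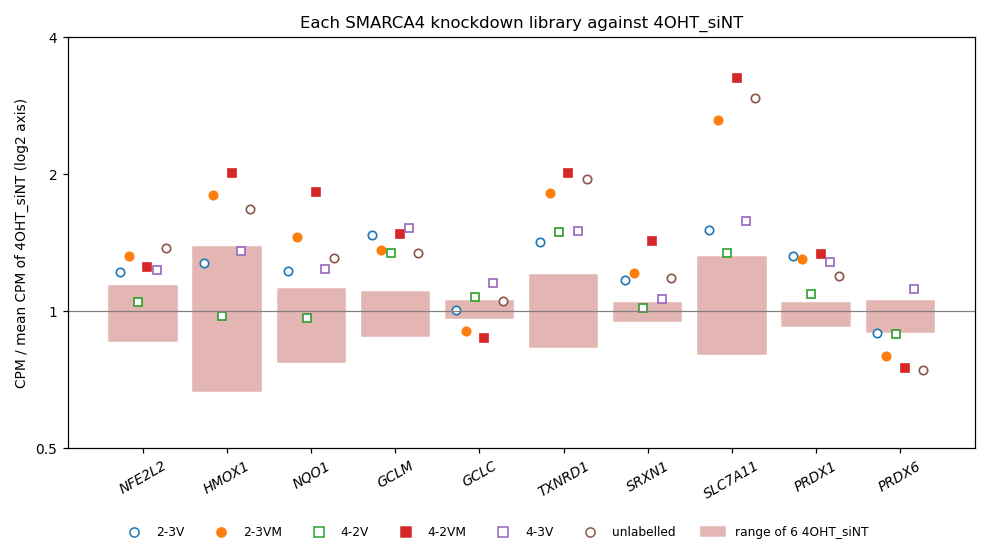
CPM of each gene in the 6 knockdown libraries divided by the mean of 4OHT_siNT (log2 axis), with the range of the 6 4OHT_siNT libraries as a shaded band. Circles are siRNA 2 and squares siRNA 4, with filled symbols for VM sets. For SLC7A11 the 3 V libraries sit just over the band, at 80.9 CPM and above, and the VM libraries at 159 and 197 CPM, while GCLM and PRDX1 form tight clusters above their bands.

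Each siRNA number was then taken on its own, with the controls of the same number. With the siRNA 2 libraries alone 7 members were called (6 higher and PRDX6 lower), where 25.7% of all genes were called. With the siRNA 4 libraries alone 0 were called by edgeR and 1 had an unadjusted p under 0.05, where 0.0303% of all genes were called. That fit holds DMSO_siNT 4-2V, and without it SLC7A11 (1.25 ± 0.27, adjusted p = 0.0197), TXNRD1 (0.55 ± 0.14, adjusted p = 0.0429) and GCLM (0.52 ± 0.12, adjusted p = 0.0300) were called, where 6.75% of all genes were. SLC7A11 was estimated at 1.05 and 1.23 with siRNA 2 and 4, and GCLM at 0.47 and 0.51.

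Since the numbers do not tie a SMARCA4 siRNA to a control siRNA, each SMARCA4 siRNA was also set against all 6 4OHT_siNT libraries, a fit added after the data were seen. With SMARCA4 siRNA 2 SLC7A11 (1.23 ± 0.19, adjusted p = 8.49e-04) and TXNRD1 (0.78 ± 0.19, adjusted p = 0.0174) were called, where 8.62% of all genes were. With SMARCA4 siRNA 4 SLC7A11 was called (1.04 ± 0.22, adjusted p = 0.0246), where 1.86% of all genes were, and TXNRD1 stood at 0.73 ± 0.19 (adjusted p = 0.0634).

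HMOX1 showed the widest gap between the siRNA numbers. In 4OHT_siNT it averaged 27.8 CPM in the 3 libraries with non-targeting siRNA 2 and 53.6 CPM in the 3 with non-targeting siRNA 4. In the knockdown group the siRNA 2 and siRNA 4 libraries averaged 64.6 and 59.0 CPM, a narrower gap. Against the controls of the same number its log2 fold change was 1.21 for siRNA 2 and 0.11 for siRNA 4, a difference of -1.10 that did not pass the test (unadjusted p = 0.0201, adjusted p = 0.568). Against all 6 controls it was 0.66 ± 0.30 for SMARCA4 siRNA 2 and 0.53 ± 0.32 for SMARCA4 siRNA 4 (adjusted p = 0.210 and 0.512). TXNRD1 leaned the same way among the controls, with 478 CPM for siRNA 2 and 626 CPM for siRNA 4 in 4OHT_siNT.

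Between siRNAs 2 and 4 within a group 0 members were called by edgeR in any group, with 3, 1 and 0 members at an unadjusted p under 0.05 in DMSO_siNT, 4OHT_siNT and 4OHT_siSMARCA4. Of all genes 0.0512%, 0.0732% and 0.00732% were called in these groups. DESeq2 called GCLM, PRDX1 and PRDX6 in DMSO_siNT, where siRNA 4 includes the library 4-2V. For HMOX1 in 4OHT_siNT the difference was 0.95 ± 0.30 (unadjusted p = 0.00646, adjusted p = 0.251).

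To ask whether senescent cells with reduced SMARCA4 returned to the growing level, 4OHT_siSMARCA4 was compared with DMSO_siNT. By edgeR 5 of 10 members were called, 3 higher and 2 lower, where 50.5% of all genes were called, 23.3% higher and 27.3% lower. TXNRD1 was higher by 0.78 ± 0.15 on the log2 scale (adjusted p = 2.57e-04), SRXN1 by 0.89 ± 0.11 (adjusted p = 1.10e-06) and GCLC by 0.51 ± 0.09 (adjusted p = 8.13e-05). NQO1 remained under the growing level (-0.57 ± 0.13, adjusted p = 9.80e-04), and so did PRDX6 (-1.61 ± 0.13, adjusted p = 3.41e-09). These 5 were again the members without overlap between groups, as were 29.6% of all genes.

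SLC7A11 had a mean of 111 CPM in growing, 60.3 CPM in senescent and 133 CPM in SMARCA4-depleted senescent cells. Its difference between the outer groups was 0.26 ± 0.20 (adjusted p = 0.283), and the knockdown values reached from 80.9 to 197 CPM on both sides of the growing range of 91.9 to 128 CPM. HMOX1 was 0.57 ± 0.25 higher (adjusted p = 0.0640), GCLM 0.17 ± 0.15 (adjusted p = 0.363), and NFE2L2 and PRDX1 differed by 0.05 ± 0.20 and -0.01 ± 0.20. Without DMSO_siNT 4-2V 8 members were called, where 59.1% of all genes were, adding NFE2L2 (0.36 ± 0.10, adjusted p = 0.00308), GCLM (0.37 ± 0.09, adjusted p = 0.00152) and PRDX1 (0.30 ± 0.09, adjusted p = 0.00857). Within VM sets, where 43.9% of all genes were called, NQO1 was no longer called (-0.28 ± 0.15, adjusted p = 0.156), and SLC7A11 was (0.64 ± 0.17, adjusted p = 0.00726).

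Members were also matched by how they varied among libraries of a group, as the Pearson correlation of log2 CPM after removing group means. These are descriptions over 18 libraries that share scaling and batches. The closest pair was GCLM and PRDX1 (0.915), which stood at 0.610 over the 17 libraries without DMSO_siNT 4-2V. NFE2L2 and PRDX1 went from 0.828 to 0.047 without it, so that likeness rested on 1 library. HMOX1 and TXNRD1 had 0.845 with it and 0.763 without, NQO1 and SLC7A11 0.520 and 0.529, and PRDX6 and PRDX1 0.587 and 0.591. SRXN1 was closest to TXNRD1 (0.544, and 0.193 without the library), and GCLC was closest to NFE2L2 (0.0720, and 0.303 without it).

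The wider pathway was described with 8 lists holding 103 other genes, of which 99 were tested. With senescence 18 rose and 41 fell (59.6% called), where 23.9% of all genes rose and 28.9% fell (52.8% called). With SMARCA4 knockdown 6 rose and 7 fell (13.1%), where 10.6% of all genes were called. Their median log2 fold change was -0.26 with senescence, against -0.05 over all genes. In the knockdown comparison it was 0.06, against 0.01 over all genes.

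Of 14 genes that control NRF2, 5 rose and 1 fell with senescence, 42.9% called against 52.8% of all genes. The small MAF genes, whose products pair with NRF2 or BACH1, were among the risers, MAFF by 1.92 ± 0.15, MAFK by 1.45 ± 0.25 and MAFG by 1.08 ± 0.11 on the log2 scale (adjusted p = 4.19e-09, 8.25e-05 and 6.34e-08). With knockdown only BACH1, the competing repressor, was called of the 14 (60.6 to 83.8 CPM, log2 fold change 0.47 ± 0.12, adjusted p = 0.0187).

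Of 23 glutathione genes tested 11 fell and 3 rose with senescence, 60.9% called against 52.8% of all genes. The secreted peroxidase GPX3 fell from a mean of 13.6 to 1.94 CPM, GPX7 from 3.74 to 1.17 CPM, while GGT1, which breaks down extracellular glutathione, rose from 2.76 to 7.39 CPM. With knockdown the glutathione reductase GSR rose from 66.6 to 95.9 CPM (log2 fold change 0.53 ± 0.09, adjusted p = 7.08e-04), and GPX3 and MGST2 fell (log2 fold changes -1.46 and -0.89).

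Of 17 thioredoxin and peroxiredoxin genes 2 rose and 6 fell with senescence, 47.1% called against 52.8% of all genes. TXNIP, an inhibitor of thioredoxin, rose from 54.4 to 148 CPM, and SESN3 and TXNRD3 were lower (log2 fold changes -1.69 and -1.496). With knockdown TXNIP fell to 78.6 CPM (-0.91 ± 0.23, adjusted p = 0.0164) and SESN3 fell further to 1.55 CPM. No gene of the list was called higher by edgeR. An unadjusted p under 0.05 in either direction was reached by 6 of them, and by 3244 of all 13136 genes tested. TXN, thioredoxin itself, measured 284 CPM in 4OHT_siNT and 468 CPM with knockdown, without overlap (0.72 ± 0.33, adjusted p = 0.185). Of 9 NADPH-supplying genes tested 4 fell and 0 rose with senescence by edgeR, 44.4% called against 52.8% of all genes. At an unadjusted p under 0.05 there were 6, where 7657 of all 13136 genes tested passed. Among those called lower were NNT (-1.001 ± 0.10) and ME1 (-0.94 ± 0.10), and IDH1 fell by 0.68 with overlap between the groups. With knockdown only TKT was called, lower by 0.38 ± 0.10 in log2 units.

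Of 17 detoxification genes tested 4 rose and 8 fell with senescence, 70.6% called against 52.8% of all genes. AKR1C1 and AKR1C2 were lower (log2 fold changes -2.33 and -2.904), though these near-identical genes can share reads. The exporter ABCC3 fell by 2.10, with overlap between the groups. With knockdown the aldose reductase AKR1B1 rose from 859 to 1579 CPM (0.88 ± 0.16, adjusted p = 0.00154) and ALDH3A2 fell by 0.52, the latter with overlap. Of 10 haem and iron genes 2 rose and 5 fell with senescence, 70% called against 52.8% of all genes. ALAS1, which starts haem synthesis, was higher by 1.14 ± 0.14. FECH, which ends that synthesis, and the iron exporter SLC40A1 were lower (-1.19 ± 0.14 and -1.74 ± 0.30). With knockdown BLVRB, a reductase of flavins and biliverdin isomers, rose from 16.4 to 36.99 CPM (1.17 ± 0.18, adjusted p = 4.38e-04), and SLC40A1 fell by 1.76.

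All 6 other genes known to be bound by NRF2 were called with senescence, 2 higher and 4 lower, where 52.8% of all genes were called. GDF15, a stress cytokine, rose from 83.9 to 1514 CPM (4.17 ± 0.17), and PIR fell from 7.79 to 1.20 CPM. LUCAT1, a long noncoding RNA, rose from 0.419 to 2.34 CPM, with overlap between the groups. With knockdown only OSGIN1 was called (0.74 ± 0.18, adjusted p = 0.0135). Of 3 superoxide and peroxide enzymes SOD1 and SOD3 fell with senescence (-0.92 ± 0.25 and -1.21 ± 0.35), 66.7% called against 52.8% of all genes. SOD3, the extracellular superoxide dismutase, rose with knockdown from 4.88 to 18.8 CPM (1.94 ± 0.35, adjusted p = 0.00143), though its groups overlapped.

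Some members share ground with other genes in the annotation (GRCh38). NFE2L2 (chr2:177218667-177392756, minus strand) overlaps HNRNPA3 and AGPS on the other strand, PRDX1 (chr1:45510914-45542732, minus) overlaps MMACHC on the other strand, and TXNRD1 (chr12:104215779-104350307, plus) overlaps EID3 on its own strand. SLC7A11 (chr4:138164097-138242349, minus) overlaps SLC7A11-AS1, which held 65 counts. The kit was directional, but whether the counting used strand is not stated, and the part of overlapping genes in the members' counts was not tested.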

How the data were processed

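Polyadenylated RNA of 18 libraries labelled IMR90 ER:RAS had been sequenced by the authors. Per the labels and the submitters' processing notes the reads were aligned with STAR 2.7.8a to hg38, and DESeq2 1.36.0 was used. The counting program and its strand setting are not given in the sources used here. The authors deposited whole-number read counts for each gene and sequencing lane, in 36 columns. The 2 lanes were summed. Of 29 labelled samples 17 matched a column, and 12 were not analysed here. A further library, whose column name gives its group and set 1VM but fits no sample title, was counted with its group and kept out of set comparisons except where stated.

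Genes were filtered with filterByExpr (minimum count 10), scaled by TMM and compared by quasi-likelihood F tests in edgeR 4.0.16 (R 4.3.3), all 18 libraries in 1 fit without covariate, two-sided, with Benjamini-Hochberg adjustment over 13136 genes (99.9% of counts). The biological coefficient of variation was 23.3%. Levels are TMM-scaled CPM. SE came from the F statistic. Log2 CPM used a prior count of 2. The siRNA numbers were compared in a fit of 6 levels over 13659 genes. DESeq2 1.42.0, other scaling, filters, subsets and leaving out each library were alternatives. VM sets with the unlabelled library, siRNA 4 without DMSO_siNT 4-2V, and each SMARCA4 siRNA against all controls were added after seeing the data. Both tools were tested on simulated data. No pair of libraries within a group looked like a repeat deposit (chi-square per degree of freedom 2.33 to 315 over 45 pairs). Pairs across groups were not compared. All 10 members are named, and of each pathway list at most 3 called genes with the largest change and a mean log2 CPM above 1. The members and the lists were chosen with earlier results of these data known. Transcript lengths came from GENCODE 44.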

Additional observations from a re-analysis of the deposited data

Results flagged for a closer look

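Of 30 sets of 6 libraries (10 members in 3 groups), 3 held a library whose gap to its neighbour exceeded the 95% limit of Dixon's test for 6 values, where chance gives about 1 in 20, or 1.5 of 30. All 3 were the library DMSO_siNT 4-2V. On log2 CPM its gap was 0.689 of the range for NFE2L2 (274 CPM against 99.8 to 137 CPM in the other 5), 0.649 for PRDX1 (1451 against 527 to 753 CPM) and, on the low side, 0.678 for TXNRD1 (331 against 519.6 to 643 CPM). The same library lay outside the others for GCLM (87.6 against 37.3 to 54.1 CPM), HMOX1 (19.96 against 32.9 to 55.3 CPM) and SRXN1 (85.7 against 101 to 135 CPM), and inside their range for NQO1, GCLC, SLC7A11 and PRDX6. In it ESR1 stood at 29.5 CPM. No other member passed this limit in any group. Effects of 4OHT or of knockdown did not differ between siRNAs 2 and 4 for any member past the adjusted threshold.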

How the results depend on the processing

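The senescence calls varied least: PRDX6, NQO1, SLC7A11, GCLC and SRXN1 were called in all 31 alternative fits, which called 5 to 7 members, and a 1.5-fold minimum left 4. In the knockdown comparison 4 members were called, against 2 with a floor of 10 counts in all libraries, 1 with sets as a replicate block and no unlabelled library (1.77% of all genes), 8 with only the 2 groups, 9 with VM sets, 9 with VM sets and the unlabelled library, 7 with siRNA 2, 0 with siRNA 4, 2 and 1 with SMARCA4 siRNA 2 and 4 against all controls, 2 with a 1.5-fold minimum, and 2 to 7 when 1 library was left out. Under the block SLC7A11 stood at 1.28 (adjusted p = 0.0205), TXNRD1 at 0.90 (0.0637), NQO1 at 0.50 (0.246) and GCLM at 0.38 (0.501). Whether the set names pair the libraries is not settled: of 15 pairs of the same set, correlations were -0.286 to 0.299, 5 above 0.1. Pairs of different sets were not compared with them. Against DMSO_siNT, 5 members became 9 with siRNA 2, 3 with the 1.5-fold minimum and 5 to 8 with 1 library left out. Pathway genes in the knockdown comparison went from 13 to 6 with the replicate block, 32 with 2 groups, 26 with VM sets, 32 with the unlabelled library added, 34 with siRNA 2, 0 with siRNA 4, 7 with siRNA 4 without DMSO_siNT 4-2V, 3 with SMARCA4 siRNA 4 against all controls, and 13 to 31 with 1 library left out. Between the siRNAs DESeq2 called 3 members and the filter of 1 count called 1.

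Signs turned for members that had not passed the test in that comparison. For 4OHT_siNT over DMSO_siNT, NFE2L2 gave 0.040 with the replicate block, 0.18 with VM sets, 0.13 with siRNA 2, 0.18 with the unlabelled library and 0.035 with siRNA 4 without DMSO_siNT 4-2V (-0.33 to 0.059 with 1 library left out). HMOX1 gave 0.35 with siRNA 4 and 0.0020 without 4-2V (left out: -0.17 to 0.074). TXNRD1 gave -0.043 with the block, -0.053 with VM sets, -0.32 with siRNA 2 and -0.055 with the unlabelled library (left out: -0.085 to 0.075), and PRDX1 gave 0.10 with siRNA 2. For the knockdown, GCLC gave -0.00019 with the floor of 10 counts, -0.15 with the block, -0.18 with VM sets, -0.023 with siRNA 2, -0.025 with SMARCA4 siRNA 2 against all controls and -0.10 with the unlabelled library (left out: -0.027 to 0.046). For 4OHT_siSMARCA4 over DMSO_siNT, NFE2L2 gave -0.23 and GCLM -0.060 with siRNA 4, and NFE2L2 -0.0092 with SMARCA4 siRNA 4 against all controls. PRDX1 gave 0.053 with the filter of 1 count, 0.29 with VM sets, 0.45 with siRNA 2, 0.023 with SMARCA4 siRNA 2 against all controls, 0.24 with the unlabelled library and 0.13 with siRNA 4 without 4-2V. Left out, NFE2L2 spanned -0.028 to 0.36 and PRDX1 -0.088 to 0.30. The cause was not tested.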

Other observations

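Several pathway genes outside the 10 members stood far from the growing level in senescent cells with SMARCA4 knockdown. Against DMSO_siNT, 8 of the 14 genes that control NRF2 were called higher and 0 lower by edgeR. Of all genes 23.3% were higher and 27.3% lower. At an unadjusted p under 0.05 there were 9 of the 14, where 7410 of all 13136 genes tested passed. SQSTM1, an autophagy receptor that binds KEAP1, was at 2348 CPM against 837 CPM (log2 fold change 1.49 ± 0.14, adjusted p = 2.58e-08), and MAFF at 211 against 44.7 CPM. AKR1B1 was at 1579 CPM against 234 CPM, 6.76-fold higher (adjusted p = 8.43e-11). On the low side stood the endoplasmic reticulum peroxidase GPX8 (83.3 against 243 CPM), the glutathione transferase GSTA4 (10.3 against 29.7 CPM) and the biliverdin reductase BLVRA (25.5 against 56.9 CPM). All of these already differed the same way in 4OHT_siNT. There SQSTM1, MAFF and AKR1B1 had means of 1754, 169 and 859 CPM, and GPX8, GSTA4 and BLVRA 93.9, 12.3 and 29.7 CPM. Between 4OHT_siSMARCA4 and 4OHT_siNT only AKR1B1 of these named genes was called by edgeR. Fibroblast markers moved as well, with 7 of 12 lower and 3 higher, and their part in these values was not tested.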
